A study of Mus musculus with 12 samples.

Results

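The comparison set the lungs of mice that received both dietary flaxseed and radiation against the lungs of mice that received neither. Its members are 6 of the 12 mice in the series, taken by their group labels with earlier results of these data known. The irradiated flaxseed group held C57BL/6 mice 15, 17 and 18, which ate a diet with 10% flaxseed for 21 days, received 13.5 Gy and were killed 48 h after the radiation. The unirradiated control group held C57BL/6 mice 2, 4 and 5, which ate the control diet and were not irradiated. The remaining mice, 7, 8 and 9 on the control diet with the same radiation and 11, 12 and 13 on flaxseed without radiation, entered the fit and served to place the values. No allele, transgene or drug is named in the labels, and sex and age are not given in the sources used here. Each sample is a separate mouse, and the tissue is whole lung, so every value averages over all lung cell types. The endothelial miR-126, the epithelial miR-200c and the smooth muscle miR-145 were detected in all 12 mice. The 2 treatments differ together between the compared groups, so their separate parts cannot be told apart from this comparison alone.

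MicroRNAs are short RNAs that pair with messenger RNAs, mainly through the seed, bases 2 to 8 from their 5′ end, and lower the stability or translation of those messages. MicroRNAs that share a seed are counted as a family because they can pair with overlapping sets of messages. In the lung, miR-34a is known as a direct target of the DNA damage factor p53, while miR-150 and miR-342-3p are abundant in lymphocytes and miR-142-3p in blood cells of all lineages.

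Mature sequences were matched for 21 of the 27 microRNA names looked up, and all are from RefSeq on GRCm38.p6. They are shown for leading microRNAs of the comparison and for some relatives that share their seed or differ from it, with the seed in capitals.
miR-34a: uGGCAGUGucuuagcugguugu
miR-449: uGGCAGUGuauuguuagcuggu
miR-503: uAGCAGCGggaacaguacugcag
miR-322: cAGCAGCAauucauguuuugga
miR-16: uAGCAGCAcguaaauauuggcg
miR-20b: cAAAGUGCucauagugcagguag
miR-106a: cAAAGUGCuaacagugcagguag
miR-17: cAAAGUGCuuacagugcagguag
miR-342-3p: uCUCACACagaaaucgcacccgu
miR-142-3p: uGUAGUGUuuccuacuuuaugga
miR-1198: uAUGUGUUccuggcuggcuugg

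On GRCm38.p6, miR-34a lies at chr4:150068473-150068494 on the plus strand, within no other listed gene. miR-503 at chrX:53054027-53054049 and miR-322 at chrX:53054306-53054327 are neighbours on the minus strand, and both lie within the span of the non-coding gene C430049B03Rik. miR-20b at chrX:52742159-52742181 and miR-106a at chrX:52742541-52742563 are also neighbours on the minus strand. miR-342-3p at chr12:108658680-108658702 lies within the span of Evl, which codes for an actin regulator, and miR-1198 at chrX:7807142-7807163 within that of Gripap1. miR-142-3p lies at chr11:87756903-87756925.

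Levels are given on the log2 scale, as cycles above or below the average of 260 microRNAs in each lung, so a difference of 1 is a doubling if template doubles in each cycle. Of 762 assays on the arrays, 312 named microRNA assays gave a value, and a test was run on the 296 that at least 2 mice in every group had. The irradiated flaxseed mice had 311, 312 and 311 detected microRNAs, and the unirradiated control mice had 308, 310 and 308. The groups did not overlap in this count (mean 311.3 ± 0.577 against 308.7 ± 1.15, SD, n = 3 each; two-sided exact permutation test, p = 0.1, the smallest that 3 against 3 allows). Mean cycle values were 19.69 ± 0.271 in irradiated flaxseed mice and 19.95 ± 0.126 in unirradiated control mice (SD, n = 3 each; exact permutation p = 0.3). In both groups a large share of values carried 4 decimals, 45.23% to 48.16% in irradiated flaxseed mice and 39.01% to 42.11% in unirradiated control mice, whereas at most 0.66% did in each of the other 6 mice. The part of this recording difference in results that involve those 6 mice was not tested. Unirradiated flaxseed mice 11, 12 and 13 had 291, 297 and 281 detected microRNAs, fewer than any other mouse. Irradiated control mice 7, 8 and 9 had 309, 307 and 307. Mean cycle values of mice 11, 12 and 13 were 20.42, 20.07 and 21.20. The part of this lower detection in contrasts with unirradiated flaxseed mice was not tested.

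The irradiated flaxseed mice were more alike than the unirradiated controls. The median standard deviation over assays was 0.21 in irradiated flaxseed mice and 0.37 in unirradiated control mice, and the control group had the larger one for 212 of the 291 assays measured in all 6 mice. Control mouse 2 was the control nearest to the irradiated flaxseed mean for 141 of these assays, mouse 5 for 94 and mouse 4 for 56. The Spearman correlation between mice across assays, where assays are not independent replicates, ran from 0.954 to 0.984 between the groups and from 0.958 to 0.994 within them.

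One microRNA, miR-150, passed the test, and it was lower after both treatments. miR-150 is a lymphocyte microRNA that restrains the transcription factor c-Myb in maturing B and T cells. It had levels of 3.64, 3.38 and 3.47 in irradiated flaxseed mice 15, 17 and 18, against 4.60, 5.85 and 5.31 in unirradiated control mice 2, 4 and 5. All 3 irradiated flaxseed mice lay below all 3 controls, and the irradiated flaxseed mice were close together. The level fell by 1.76 ± 0.29 on the log2 scale (SE, n = 3 each; limma, adjusted p = 0.0321 over 296 assays; 95% interval -2.40 to -1.11), which is 3.38-fold lower. The 1 call among 296 assays is 0.338% of those tested, and 0 assays were called higher (0.0%). At an unadjusted p under 0.05 there were 20 assays with a positive difference (6.76%) and 19 with a negative one (6.42%). The difference in miR-150 stayed between -2.08 and -1.46 in all 32 alternative settings, but its call was lost in 15 of them, among them a fit of the 6 compared mice alone (adjusted p = 0.132 by limma). It was also lost without mouse 13, 15, 17, 18, 5, 7, 8 or 9, each left out in turn.

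The groups that received 1 treatment help to place miR-150. Its mean was 3.50 ± 0.13 with both treatments, 5.20 ± 0.16 with radiation on the control diet, 4.29 ± 0.30 with flaxseed alone and 5.25 ± 0.62 with neither (SD, n = 3 each). The irradiated flaxseed mice were lower than the irradiated controls by a difference of -1.71 (limma adjusted p = 0.0102, in a contrast with 15 of 296 assays called, 5.07%). That call was lost with no normalization and without mouse 7 or 8, each left out in turn. Against unirradiated flaxseed the difference was -0.80 (limma adjusted p = 0.0873, in a contrast with 43 of 296 called, 14.5%). In that group the fewest microRNAs were detected. These contrasts share the irradiated flaxseed mice, so they are not independent of each other.

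**Figure D1:**
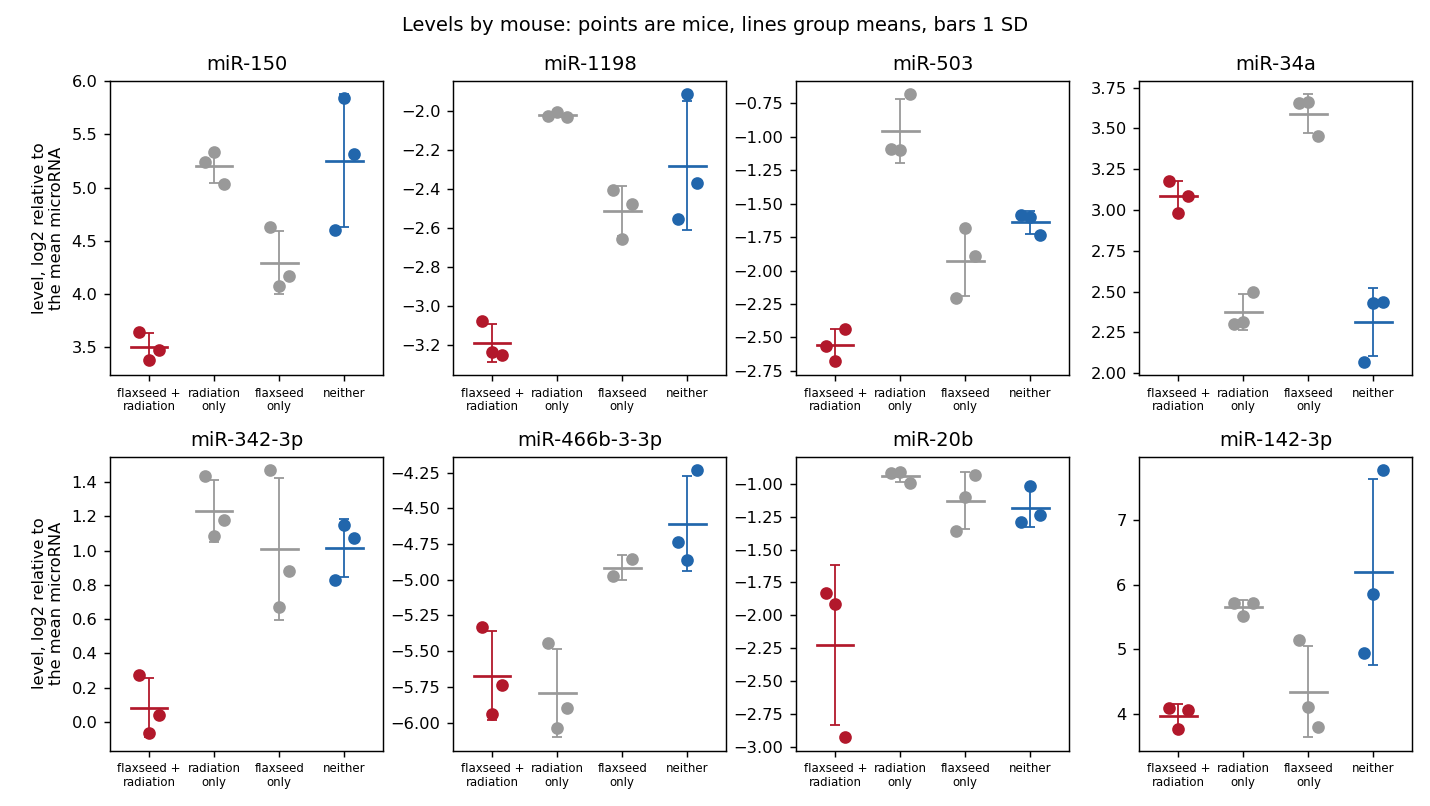
Levels by mouse of the 8 microRNAs with the smallest p-values among the named microRNAs. The y axis is log2 relative to the mean microRNA, with its own scale in each panel. miR-320, ranked 8 by p-value over all tested assays, is not among the named microRNAs and is not shown. Points are mice, horizontal lines group means and bars 1 SD, for flaxseed with radiation, radiation only, flaxseed only and neither; miR-466b-3-3p has 2 points in the flaxseed group. In all 8 panels the 3 mice with both treatments lie wholly on 1 side of the 3 mice with neither. They lie above them for miR-34a and below them for the others. The mean of miR-466b-3-3p was also low with radiation alone, and that of miR-142-3p with flaxseed alone. The mean of miR-34a was also high with flaxseed alone. For miR-150 the mean with flaxseed alone, 4.29, lay between 3.50 with both treatments and 5.25 with neither. Mouse 11, with flaxseed alone, lay within the range of the mice with neither for miR-150 and miR-142-3p.

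Next to miR-150 stood 3 microRNAs that missed the threshold, miR-1198, miR-503 and miR-34a, with adjusted p-values of 0.0691, 0.0691 and 0.0704 by limma. miR-1198 had levels of -3.08, -3.24 and -3.25 in irradiated flaxseed mice and of -2.55, -1.91 and -2.37 in unirradiated controls. The groups did not overlap, and the difference was -0.91 ± 0.19 (SE). Its mean with both treatments, -3.19, was also below the irradiated control mean of -2.02 (difference -1.17, limma adjusted p = 0.00843) and the unirradiated flaxseed mean of -2.51 (difference -0.68, limma adjusted p = 0.0410). The call against irradiated controls was lost in 3 of 31 alternatives. That against unirradiated flaxseed was lost in 14 of 30, the authors' values and the fits without mouse 7, 8, 9, 11, 13, 15, 17 or 18 among them, and its sign changed with no normalization.

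miR-503, which targets cell cycle messages such as cyclin D1, had levels of -2.56, -2.68 and -2.44 in irradiated flaxseed mice, against -1.58, -1.60 and -1.74 in unirradiated controls. Each group was tight and the groups stood well apart, with a difference of -0.92 ± 0.19 (SE). The mean with both treatments was -2.56, against -0.96 in irradiated controls, -1.93 in unirradiated flaxseed mice and -1.64 in unirradiated controls. The difference from the irradiated controls, -1.60, passed the test (limma adjusted p = 0.00199), except with no normalization, and the difference from unirradiated flaxseed, -0.63, did not (limma adjusted p = 0.0521).

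miR-34a, the p53 target that slows the cell cycle, had levels of 3.18, 2.98 and 3.08 in irradiated flaxseed mice, against 2.07, 2.43 and 2.44 in unirradiated controls. The irradiated flaxseed mice lay above all controls, with a difference of 0.77 ± 0.17 (SE), the only positive one among the 8 smallest p-values. Its mean with both treatments was 3.08, against 2.37 in irradiated controls, 3.59 in unirradiated flaxseed mice and 2.31 in unirradiated controls. The irradiated flaxseed mice were higher than the irradiated controls by 0.71 (limma adjusted p = 0.0333), and their difference from unirradiated flaxseed mice was -0.51 (limma adjusted p = 0.0661). The call against irradiated controls was lost in 14 of 31 alternatives, with adjusted p-values up to 0.467 by limma. Among these were every other scaling tried, the authors' values and the fits without mouse 7, 8, 9, 15, 17 or 18.

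The lymphoid and myeloid lists held members on both sides of 0. miR-342-3p, a lymphocyte microRNA, had levels of 0.27, -0.06 and 0.04 in irradiated flaxseed mice, against 0.83, 1.15 and 1.07 in unirradiated controls. Its difference was -0.93 ± 0.23 (SE; limma adjusted p = 0.102), with no overlap. It was also lower than in irradiated controls, by -1.15 (limma adjusted p = 0.0210), and than in unirradiated flaxseed mice, by -0.92 (limma adjusted p = 0.0247). The first of these calls was lost in 8 of 31 alternatives, the authors' values and the fits without mouse 7, 8, 17 or 18 among them. The other was lost in 7 of 30, the fits without mouse 15, 17 or 18 among them, and with no normalization its difference was -0.06 (limma adjusted p = 0.903).

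miR-142-3p, which is made in blood cells of all lineages, had levels of 4.09, 3.76 and 4.05 in irradiated flaxseed mice, against 4.94, 5.86 and 7.78 in unirradiated controls. The controls spread over almost 3 cycles, and the difference of -2.23 ± 0.60 (SE) did not pass (limma adjusted p = 0.119). Its other arm, miR-142-5p, had levels of -5.05, -5.49 and -5.06 in irradiated flaxseed mice and of -4.24, -2.37 and -4.88 in unirradiated controls. It too did not overlap, with a difference of -1.38 ± 0.61 (SE; limma adjusted p = 0.351). It was read late, at a median of 24.7 cycles over the 6 mice.

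miR-155, which activated lymphocytes and macrophages make, had levels of -1.75, -0.33 and -0.83 in irradiated flaxseed mice, against 4.66, 0.90 and 7.07 in unirradiated controls. This difference of -5.18 had a standard error of 2.36 (limma adjusted p = 0.375), and unirradiated flaxseed mouse 13, at 9.33, was higher still than any control. miR-20b, a member of the miR-106a cluster on chromosome X, had levels of -1.83, -1.91 and -2.93 in irradiated flaxseed mice, against -1.29, -1.02 and -1.24 in unirradiated controls. Its difference was -1.04 ± 0.27 (SE, limma adjusted p = 0.119). It was lower than in irradiated controls, by -1.28 (limma adjusted p = 0.0222), and than in unirradiated flaxseed mice, by -1.095 (limma adjusted p = 0.0249). These calls were lost in 7 of 31 and in 11 of 30 alternatives, the authors' values among both.

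The lymphoid list, whose 8 tested assays were miR-150, miR-342-3p, miR-155, miR-20b, miR-106a, miR-28, miR-181a and miR-181c, had 1 called assay and a median difference of -0.57, against 0.00 over all 296 assays. The differences were negative for 5 of the 8 and positive for 3, 0.46 for miR-181a, 0.39 for miR-181c and 0.12 for miR-28, whose groups overlapped. For 4 of the 8 the irradiated flaxseed mice lay below all unirradiated controls, where 12.5% of all assays did, and for 0 of the 8 above them, where 8.11% of all assays did. The summed level of the 8 assays ran from 5.07 to 5.51 in irradiated flaxseed mice and from 6.33 to 7.65 in unirradiated controls on the log2 scale. In control mice 2 and 5, miR-155, at 4.66 and 7.07, entered this sum above miR-150, at 4.60 and 5.31. In control mouse 4 miR-155 was below miR-150, at 0.90 against 5.85. The sum thus leans on miR-155, whose difference had a standard error of 2.36. In whole lung, fewer lymphoid cells and less of the listed RNAs per cell cannot be told apart.

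The myeloid list did not run one way. Its median was -0.22 over 7 assays, with 2 lying wholly on each side of the controls (8.11% of all assays above and 12.5% below). Below the controls were both arms of miR-142. Above them were both assays of miR-223, a microRNA of neutrophils and other myeloid cells. The assay numbered 000526B had levels of 6.13, 6.26 and 6.38 in irradiated flaxseed mice against 5.52, 5.66 and 5.11 in unirradiated controls (difference 0.83 ± 0.46, SE; limma adjusted p = 0.444). The assay numbered 002295A had levels of 4.26, 4.30 and 4.45 in irradiated flaxseed mice against 3.83, 4.25 and 3.92 in unirradiated controls, with a difference of 0.34. The 3 microRNAs of red cells and blood had negative differences from -0.81 for miR-451 to -0.29 for miR-16. Their summed level was 6.15 to 6.22 in irradiated flaxseed mice and 6.21 to 6.73 in unirradiated controls, and the part of blood in the tissue in these results was not tested.

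**Figure D2:**
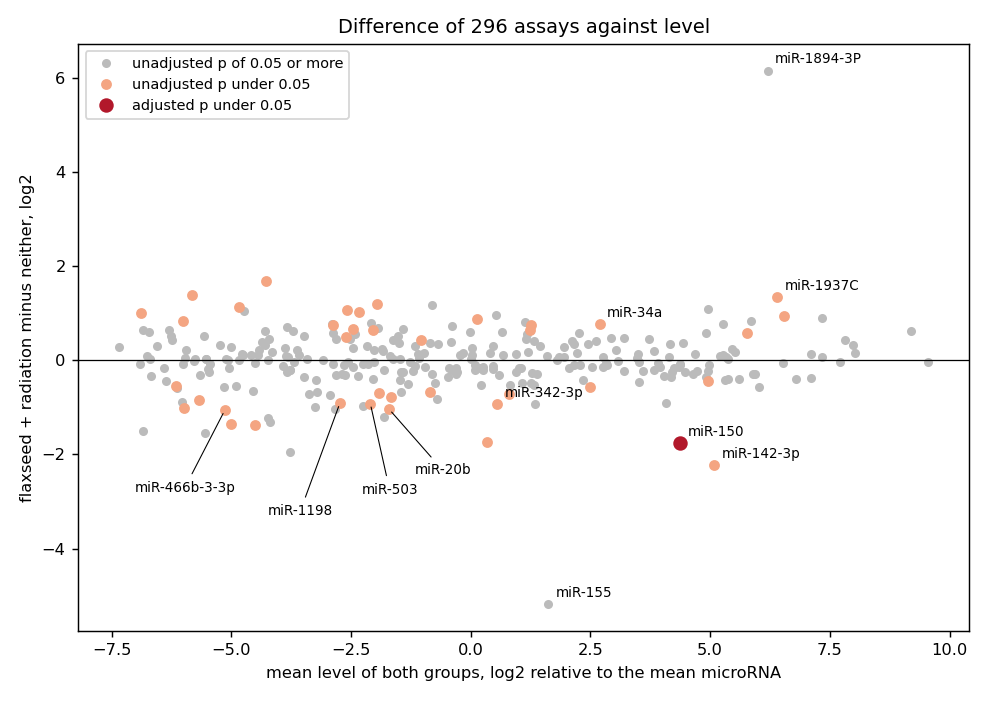
Difference between mice with both treatments and mice with neither (y axis, log2) against the mean level of both groups (x axis, log2 relative to the mean microRNA) for 296 assays; each point is an assay, coloured by its limma p-value. miR-150 is the 1 assay with an adjusted p under 0.05, and miR-1894-3P and miR-155 have the greatest differences, 6.15 and -5.18, without passing.

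On the high side none passed the test, and the 5 assays with the smallest p-values were miR-34a, miR-1937C, miR-338, let-7a# (the other arm of the let-7a hairpin) and miR-1937B. miR-1937C had levels of 7.81, 6.65 and 6.77 in irradiated flaxseed mice, against 5.95, 5.56 and 5.68 in unirradiated controls (difference 1.35 ± 0.39, SE; limma adjusted p = 0.147). miR-1937B had levels of 7.27, 6.80 and 6.97 in irradiated flaxseed mice, against 6.33, 5.75 and 6.16 in unirradiated controls (difference 0.94 ± 0.29, SE). For both assays the groups did not overlap. With flaxseed alone the means were 6.805 for miR-1937C and 7.322 for miR-1937B, against 7.077 and 7.013 with both treatments. With radiation alone they were 5.975 and 6.249, and with neither 5.727 and 6.078.

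miR-338 had levels of -3.77, -4.83 and -4.22 in irradiated flaxseed mice, against -5.27, -5.62 and -5.32 in unirradiated controls (difference 1.13 ± 0.34, SE; limma adjusted p = 0.167). This assay was read late, at a median of 24.7 cycles over the 6 mice. let-7a# differed by 0.75 ± 0.23 (SE; limma adjusted p = 0.167). Both groups of single-treatment mice were close to the irradiated flaxseed mice for miR-338, with means of -4.53 with radiation alone and -4.50 with flaxseed alone, against -4.27 with both treatments and -5.40 with neither.

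The lists for p53 and the DNA damage response held no call. Of 17 tested assays of p53-linked microRNAs 0 were called, 2 lay wholly above and 1 wholly below the controls (8.11% and 12.5% of all assays), and the median difference was 0.08. miR-34b-3p, a p53 target that is also abundant in ciliated cells, had levels of 4.76, 4.65 and 4.82 in irradiated flaxseed mice and of 4.57, 4.58 and 4.68 in unirradiated controls (difference 0.13 ± 0.17, SE), so the groups overlapped. miR-29c, which targets collagen messages, had levels of 4.51, 6.03 and 5.93 in irradiated flaxseed mice, against 4.64, 3.98 and 4.61 in unirradiated controls. Its difference of 1.08 came with a standard error of 1.31, because the fit shares 1 estimate of spread with unirradiated flaxseed mice, which ran from -5.55 to 1.00.

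Of the 11 tested regulators of the DNA damage response, 0 were called and the median was -0.09. miR-421, which targets the damage kinase ATM, had levels of -2.64, -2.14 and -2.31 in irradiated flaxseed mice, against -2.69, -2.84 and -3.04 in unirradiated controls (difference 0.50 ± 0.20, SE; limma adjusted p = 0.328). Against irradiated controls, whose mean was -3.79, it was higher by 1.43 (limma adjusted p = 0.00375), a call lost with scaling to the control RNAs and with no normalization. miR-182, which targets the repair factor BRCA1, differed by 0.72 ± 0.42 (SE), with overlap.

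Of the 10 inflammation assays 0 were called, 2 lay wholly above and 3 wholly below the controls (8.11% and 12.5% of all assays), and the median was -0.33. miR-21, which rises in many kinds of tissue injury, had levels of 4.73, 5.68 and 5.10 in irradiated flaxseed mice, against 5.10, 5.50 and 6.10 in unirradiated controls (difference -0.40 ± 0.36, SE; limma adjusted p = 0.692). Its groups overlapped, and mouse 11 of the unirradiated flaxseed group had no value for it. The 18 fibrosis assays had a median of -0.05 with 0 calls, and besides miR-155 and miR-503 their non-overlapping assay on the low side was miR-200c in the assay numbered 002300A.

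The list of oxidative stress microRNAs, named for the NF-E2-related factor that dietary antioxidants can activate, had 11 tested assays, 0 calls and a median of 0.12. Wholly above the controls were 3 of the 11 and wholly below them 1, against 8.11% and 12.5% of all assays. Among those above, miR-365 had levels of 1.77, 1.40 and 1.74 in irradiated flaxseed mice, against 1.05, 0.90 and 0.69 in unirradiated controls (difference 0.76 ± 0.26, SE; limma adjusted p = 0.193). It was higher than in unirradiated flaxseed mice, by 1.20 (limma adjusted p = 0.0177), a call lost without mouse 15 or 18. miR-455 had 1 assay on each side, 0.52 for the assay numbered 001280B and -0.70 for the one numbered 002455A, so no direction can be given for it.

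Markers of structural lung cells gave 0 calls. The median difference was 0.12 over 11 epithelial assays, 0.20 over 6 ciliated, -0.02 over 4 endothelial, 0.08 over 3 smooth muscle and -0.23 over 6 fibroblast assays. miR-126, the endothelial microRNA, had levels of 9.39, 9.83 and 9.39 in irradiated flaxseed mice and of 9.87, 9.50 and 9.37 in unirradiated controls. miR-375, a microRNA of secretory and neuroendocrine cells, had levels of 1.60, 1.63 and 1.64 in irradiated flaxseed mice and of 1.58, 1.29 and 1.75 in unirradiated controls. Neither differed beyond the spread of its mice (differences -0.04 ± 0.29 and 0.09 ± 0.19, SE).

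Both assays of miR-1, the microRNA of heart and skeletal muscle, had positive differences, 0.88 ± 0.36 in the assay numbered 002222A and 1.17 ± 0.55 in the one numbered 002064A (SE; limma adjusted p = 0.328 and 0.394). In the assay numbered 002222A the levels were 0.65, 0.89 and 0.16 in irradiated flaxseed mice, against 0.27, -0.95 and -0.24 in unirradiated controls. Control mouse 2 overlapped the irradiated flaxseed mice in both assays. The summed level of the 4 striated muscle assays was 3.68 to 4.20 in irradiated flaxseed mice and 2.87 to 4.37 in unirradiated controls.

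**Figure D3:**
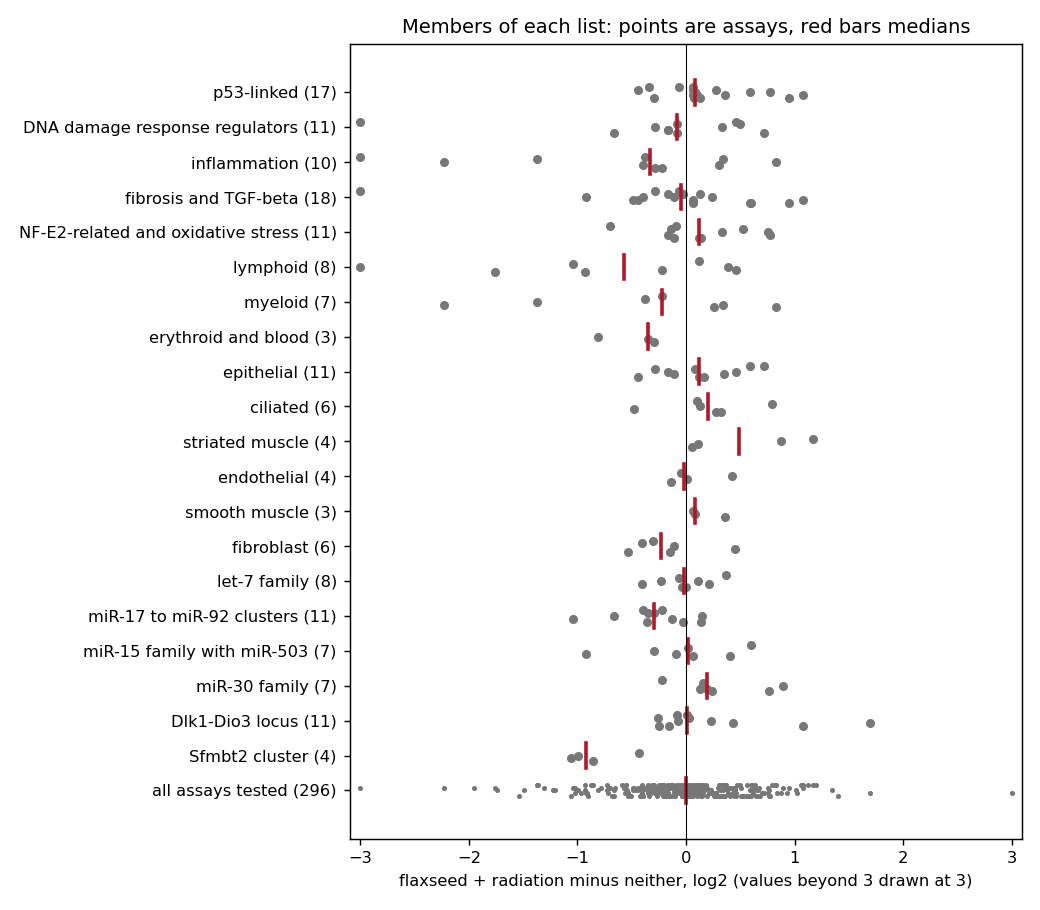
Differences between mice with both treatments and mice with neither (x axis, log2) for the tested assays of each list, with the number tested in parentheses. Grey points are assays, red bars are medians, and the lowest row holds all 296 assays; values beyond 3 are drawn at 3. The medians lie between -0.92 for the Sfmbt2 cluster and 0.49 for striated muscle, and those of the let-7 family, the miR-15 family and the Dlk1-Dio3 locus lie near 0.

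The sign of a list's median depended on the scaling for 12 of the 20 lists, which crossed 0 under at least 1 of 7 scalings. The lymphoid median stayed between -0.75 and -0.32, that of the miR-17 to miR-92 clusters between -0.48 and -0.04, and that of the Sfmbt2 cluster between -1.10 and -0.67.

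Relatives by seed were compared where a sequence was matched, and those gave smaller differences than the leading microRNAs. The gap between relatives was not tested. miR-503 carries the seed AGCAGCG, and the microRNAs of the miR-15 family carry AGCAGCA, which differs in the last base. Over 6 assays with AGCAGCA the differences ran from -0.29 for miR-16 to 0.60 for miR-322, with a median of 0.04. miR-322, the neighbour of miR-503 on chromosome X, had levels of 1.20, 0.72 and 0.95 in irradiated flaxseed mice, against 1.29, -0.24 and 0.02 in unirradiated controls, with overlap (difference 0.60 ± 0.39, SE).

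The 6 assays with the seed AAAGUGC gave 5 negative differences and 1 positive one. miR-20b was the lowest at -1.04, and the other 5 lay between -0.36 for miR-20a and 0.14 for miR-93. The sequences of miR-20b, miR-106a and miR-17 are nearly identical, and how far each stem-loop assay reads the others is not stated. Over the 11 assays of the miR-17 to miR-92 clusters, which promote growth of lymphoid and many other cells, 9 differences were negative and 0 were called, with a median of -0.30.

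miR-34a and miR-449 share the seed GGCAGUG, and their differences had opposite signs. miR-34b-5p, miR-34c and miR-449b were not among the assays compared by seed. In the ciliated list, which holds them and miR-449, 5 of 6 differences were positive, and that of miR-449 was the 1 negative. The difference was 0.797 ± 0.415 (SE) for miR-34b-5p and 0.28 for miR-34c, and no assay of that list lay wholly outside the controls. miR-449, a microRNA of ciliated cells, had levels of -1.74, -0.12 and -1.08 in irradiated flaxseed mice, against -0.59, -1.07 and 0.14 in unirradiated controls (difference -0.47 ± 0.58, SE). Its groups overlapped, so the sign is not settled by these mice.

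**Figure D4:**
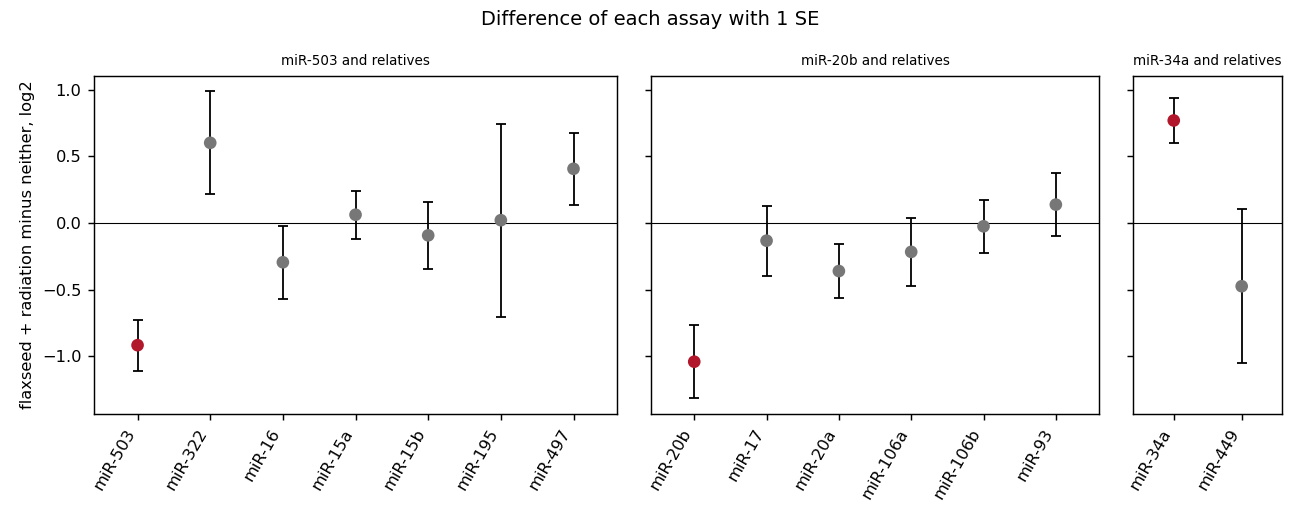
Difference between mice with both treatments and mice with neither (y axis, log2) for miR-503 beside the miR-15 family, for miR-20b and for miR-34a. The x axis holds the assays of related seed that had a matched sequence. Points are assays, red for the named one, and bars are 1 SE from the limma fit. miR-503, at -0.92, lies below the 6 relatives shown, miR-20b, at -1.04, below the other 5 shown, and miR-34a, at 0.77, above miR-449.

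The 4 tested assays of the Sfmbt2 cluster, a rodent group of near-identical microRNA copies within the Sfmbt2 gene, were all negative, with a median of -0.92 and 0 calls. miR-466b-3-3p had levels of -5.33, -5.94 and -5.74 in irradiated flaxseed mice, against -4.73, -4.86 and -4.23 in unirradiated controls (difference -1.06 ± 0.25, SE; limma adjusted p = 0.102; mouse 12 had no value). Irradiated controls had a mean of -5.79, and the difference from them was 0.12 (limma adjusted p = 0.811). miR-466a-3p differed by -0.85 ± 0.30 (SE; limma adjusted p = 0.220). Because the copies are near-identical, the assays cannot be assigned to single genes. Both miR-466b-3-3p and miR-466a-3p were read late, at medians of 25.1 and 25.5 cycles over the 6 mice.

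The let-7 family, which restrains growth, had 8 tested assays with 4 positive and 4 negative differences and a median of -0.02. let-7i had levels of 4.74, 4.83 and 4.94 in irradiated flaxseed mice, against 4.98, 5.11 and 5.10 in unirradiated controls (difference -0.23 ± 0.18, SE). For let-7e, with a difference of 0.37, the standard error was 1.41, since unirradiated flaxseed mice ran from -6.58 to 0.41. The miR-30 family had a median of 0.19 over 7 assays and the Dlk1-Dio3 locus, an imprinted cluster, one of 0.01 over 11.

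Assays that did not reach the test in all 4 groups were also examined. Of the 16 untested assays, 14 had at least 2 values in both compared groups and failed the filter in unirradiated flaxseed mice. When these were added, their smallest adjusted p was 0.290 by limma, with 6 positive and 8 negative differences. No microRNA was detected in all mice of 1 compared group and in 0 of the other.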

How the data were processed

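Lung RNA of 12 mice was measured by quantitative PCR on OpenArray plates; per the labels' protocols, stem-loop primers of pools A and B made the cDNA, which was amplified before loading. The deposited tables hold threshold cycles (Crt), in which 1 cycle less is 1 log2 unit more, and the authors' normalized log2 values. The sources used here do not say how Crt was called or repeated readings were combined. Names stand only in the normalized table and were carried to the Crt table by matching each assay's rank in every mouse, which named 322 of 326 assays with a value. The other 4, with 40 values, were left out. A name with several assays is given with its assay number; # marks the other arm of a hairpin.

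A microRNA was detected at a Crt below 28. Each mouse was scaled to its mean over 260 assays detected in all 12 mice, and the sign was turned. Undetected reactions were treated as missing. All 12 mice entered 1 limma fit (limma 3.58.1, R 4.3.3) with a mean for each of the 4 groups (8 residual degrees of freedom), adjusted over 296 assays by Benjamini-Hochberg and called at an adjusted p under 0.05. Per-mouse counts were compared by exact permutation tests (SciPy 1.17.1). The fit was also run on simulated normal values with 1 spread per assay shared by all groups. The groups here differed in spread, so that run is no check of the calls. The arrays carry no read depth, so the number of mice limits the precision.

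The named microRNAs are the calls, the 5 smallest p-values in each direction where fewer than 5 were called, up to 3 members of each of 20 lists, 10 fixed microRNAs, assays on in 1 group and off in the other, and the 5 nearest the threshold. miR-1894-3P and those named only as members of a list, a seed group or an assay pair fall outside it and were chosen after their values were seen. The members, lists and tests were chosen with earlier results of these data known. Alternatives were other scalings (that to control RNAs without Y1 was added after the data were seen), the authors' values, other Crt limits and filters, other samples or models in the fit, a threshold of 0.10 and leaving out each mouse.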

Additional observations from a re-analysis of the deposited data

Results flagged for a closer look

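The control RNA Y1, a small cytoplasmic RNA, was tested in no comparison and entered only the scaling to control RNAs. Its pool A assay was flagged because the groups did not overlap in it, so the separation is the rule of choice. It had levels of 0.48, 0.68 and 0.49 in irradiated flaxseed mice, against 0.29, -1.61 and -0.66 in unirradiated controls. The difference was 1.212 on the log2 scale. The two-sided exact permutation p of 0.1, the smallest that 3 against 3 allows, follows from that rule and adds no test. Among the microRNA assays tested, 8.11% also lay wholly above the controls. The pool B assay of Y1 differed by 0.55, with overlap. Over all 10 assays of control RNAs the differences ran from -0.34 to 1.21, with a median of 0.04 and a mean of 0.18, and the mean of the 8 assays other than Y1 was 0.0013.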

How the results depend on the processing

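Over 32 alternatives the number of called assays, 1 in the reported setting, was 0 with no normalization, with quantile normalization, with scaling by primer pool, by the median assay or by the control RNAs, in a fit of the 6 compared mice and in a fit without the 3 unirradiated flaxseed mice. It was 4 over assays detected in all 12 mice and at an adjusted p under 0.10 (miR-150, miR-1198, miR-503 and miR-34a), and 8 with array weights. Leaving out 1 mouse gave 0 to 5 calls. There were 5 when mouse 11 was left out, 3 for mouse 2, 2 for mouse 4, and 0 for each of mice 5, 7, 8, 9, 13, 15 and 18. For mouse 17 the 1 call was miR-337-5p. Counts at an unadjusted p under 0.05 ran from 22 to 56 over all alternatives. The cause of these shifts was not tested. The difference in detected microRNAs, 2.67, was 6.0 at a Crt limit of 26, 1.33 at 30 or with no limit, and 2.33 to 3.33 without 1 mouse.

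The scaling moved the median of all assays to -0.18 with control RNAs (to -0.001 with the 2 Y1 assays left out, a scaling added after seeing the data, in which miR-150 remained the 1 call and no named microRNA changed sign), 0.15 with the median assay and 0.26 with no normalization. List medians kept their sign under 7 scalings, the reported one included, for the inflammation, lymphoid, erythroid, ciliated, striated muscle, miR-17 to miR-92, miR-30 and Sfmbt2 lists; the other 12 changed sign under at least 1 of them. Of 58 named microRNAs 48 never changed sign. Changes were to 0.00 for miR-30d, 0.003 for miR-10a and -0.20 for miR-145 with quantile normalization. With control RNAs they were to -0.047 for miR-34b-3p, -0.095 for miR-143 (002249A), -0.092 for miR-375, -0.067 for miR-133b and -0.11 for miR-145. With the median assay they were to 0.017 for miR-10a and 0.11 for miR-126, and within pools to 0.029 for miR-126. With no normalization they were to 0.027 for let-7i, 0.032 for miR-30d, 0.12 for miR-10a and 0.21 for miR-126, and with the authors' values to 0.008 for miR-30d and -0.18 for miR-145. Leaving out 1 mouse gave -0.191 to 0.098 for miR-126, -0.039 to 0.189 for miR-375, -0.028 to 0.662 for let-7e and -0.081 to 0.298 for miR-133b. Against irradiated controls, miR-466b-3-3p was between -0.048 and 0.294 when 1 mouse was left out, and negative without mouse 15 or 8. Against unirradiated flaxseed, with no normalization, the differences were 0.075 for miR-150, 0.19 for miR-1198, 0.24 for miR-503, 0.36 for miR-34a, 0.36 for miR-466b-3-3p and 0.49 for miR-142-3p, and with undetected reactions set to 28 it was 0.25 for miR-466b-3-3p. No paired analysis was possible because the compared groups share no replicate numbers.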

Other observations

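Some microRNAs were read by more than 1 assay. Of 11 such pairs 8 had differences of the same sign, with a median gap of 0.33. The pairs of opposite sign were miR-381 (1.69 and -0.24), miR-455 (0.52 and -0.70) and miR-200c (0.59 and -0.44). For miR-200c, an epithelial microRNA, both assays had an unadjusted p under 0.05 by limma, with levels of 5.96, 5.94 and 6.28 in irradiated flaxseed mice against 5.96, 5.13 and 5.32 in unirradiated controls in the assay numbered 000505B. In the assay numbered 002300A they were 4.68, 4.80 and 4.75 in irradiated flaxseed mice against 5.28, 5.37 and 4.90 in unirradiated controls. Between the 2 arms of 1 hairpin, 19 of 33 pairs had the same sign, with a median gap of 0.36.

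The greatest difference was that of miR-1894-3P, at 6.15 with a standard error of 3.15. It had levels of 10.1, 8.62 and 9.10 in irradiated flaxseed mice, against 9.72, 1.06 and -1.38 in unirradiated controls, so control mouse 2 lay with the irradiated flaxseed mice and the other 2 controls far below.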
